A study of Mus musculus with 12 samples.

Results

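Glucose breakdown to lactate and the transcriptional response to low oxygen were followed in single whole mouse embryos through 46 gene symbols of enzymes, transporters, oxygen sensors and hypoxia-induced genes. The symbols name known pathway members and were matched by name to the gene table. Pkm and Pkm2 are alternative names of 1 gene, pyruvate kinase, so 45 genes had an entry, of 23284 genes in all. All 45 passed the filter on low counts and were among the 14412 genes tested. The study sequenced polyadenylated RNA from embryos at 9.0 days post coitum, with about 9 to 10 somite pairs, on a mixed C57BL/6 x 129Sv background. The labels give 2 genotypes: 4 embryos were wild type (WT) and 8, titled CDKO, were described as null for Tgif1 and Tgif2, a pair of related homeodomain repressors. The series text calls the 8 embryos conditional mutants, but the Cre driver, the cells it acts in, the litters and any allele that the WT embryos share with them are not stated in the labels.

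Glycolysis splits glucose into pyruvate in the cytosol, and lactate dehydrogenase then turns pyruvate into lactate that leaves the cell. Early postimplantation mouse embryos are known to rely strongly on this route. Low oxygen acts on the same genes through hypoxia-inducible factors (HIF): prolyl hydroxylases mark HIF alpha subunits for destruction by the Vhl ubiquitin ligase while oxygen is present, and stabilised HIF binds short ACGTG or GCGTG elements in DNA and raises transcription of glucose transporters, glycolytic enzymes, angiogenic factors and its own hydroxylases. HIF alpha subunits are controlled mainly at the level of protein, which RNA does not show.

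The libraries held 16802367 to 21346245 counts. Tgif1 checked the labels, at 60.9 ± 2.52 CPM (SD, n = 4) in WT and 6.20 ± 0.528 CPM (SD, n = 8) in CDKO embryos, where CPM is the count scaled to a common library total after TMM scaling. Tgif2 was not lower (87.3 ± 1.17 and 97.9 ± 11.8 CPM, log2 fold change 0.16, SE 0.08, adjusted p = 0.0958). A count over the whole gene does not check a partial deletion, so the 8 embryos are called mutant-labelled or CDKO. Each library is 1 embryo, and p-values measure the spread between these embryos. Marker genes of whole tissues also differed. The summed level of 12 heart muscle markers was 1642 to 2110 CPM in WT and 2542 to 4504 CPM in CDKO embryos, without overlap, and 9 of 12 were called higher. Of 10 endothelial markers 7 were higher, and their sum was 433 to 513 CPM in WT and 548 to 793 CPM in CDKO embryos. Of 10 somite and presomitic markers 7 were lower. The 10 primitive red cell markers had no call and summed to 813 to 1360 CPM in WT and 37.7 to 1725 CPM in CDKO embryos, with Hba-a1 at 0 in all. Of 10 yolk sac endoderm markers 0 were called and of 10 neural tube markers 2 were lower. Beside these counts, 26.6% of all genes tested were called higher and 24.9% lower, so the neural tube count is near that share. Decidua and trophoblast markers summed to 61.0 to 92.0 CPM in WT and 122 to 299 CPM in CDKO embryos. Most of that sum was Hand1, which embryonic heart and lateral mesoderm also express, and Hand1 and Dcn were the 2 of 4 tested that rose. Of the defining placental markers, Prl2c2, Tpbpa and Psg17 were at 0 in WT embryos, and Prl2c2 and Tpbpa were above 0 only in CDKO embryo 6. In that embryo Prl8a2 reached 35.9 CPM, against 0.41 CPM or less in every other embryo. Plac1 reached 34.1 CPM there, against 10.9 CPM or less, and Prl3d1 7.23 CPM, against 0.77 CPM or less. Gcm1 and Ascl2 were not highest in that embryo. In RNA from a whole embryo, a different number of cells of a type and a different amount of RNA per cell cannot be told apart.

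Glycolytic and hypoxia-response transcripts were mostly higher in the mutant-labelled embryos. Of the 45 genes, 30 rose, 3 fell (Hif1a, Pfkfb4 and Pdk3) and 12 did not pass the test, at an adjusted p under 0.05 in edgeR's quasi-likelihood test with Benjamini-Hochberg adjustment over all genes tested. These 33 calls are 73.3% of the 45, where 51.5% of all genes tested were called. Higher calls made up 26.6% of all genes and lower calls 24.9%. The median log2 fold change of the 45 was 0.45, against 0.0066 over all genes tested, and 41 of 45 were above 0. Of the 30 that rose, 15 did so by at least 1.5-fold and 9 by at least 2-fold. Among all 14412 genes tested 1712 and 726 were called higher at these sizes. In 18 genes every CDKO embryo lay above every WT embryo and in 3 every CDKO embryo lay below, where 17.5% and 17.1% of all genes did so. Among the 31 genes with no near-identical copy elsewhere in the transcript set 20 rose and 3 fell, and among the 14 with such a copy 10 rose and 0 fell. Those 14, whose counts are uncertain, are Gpi1, Aldoa, Tpi1, Gapdh, Pgk1, Pgam1, Eno1, Pkm2, Ldha, Ldhb, Bnip3, Bnip3l, P4ha2 and Higd1a.

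Of the alternatives run, the heart covariate changed the count of higher genes most. With the heart marker score in the fit, 5 of the 45 genes were called higher and 2 lower, and the median log2 fold change was 0.23. In that fit 17.9% of all genes tested were called higher and 13.5% lower, so the 45 genes were called higher no more often than genes in general. Since heart marker sums did not overlap between the genotypes, that score and genotype cannot be told apart here. With the red cell marker score as covariate 24 genes were higher, beside 24.1% of all genes. With the yolk sac score 30 were higher, beside 28%, and with Xist, a marker of sex in mouse embryos, 30, beside 26%. The number of higher calls was 25 without WT embryo 2, beside 23.2% of all genes, and 25 without WT embryo 3, beside 23.4%. It was 30, beside 24.3%, without CDKO embryos 2 and 6 and WT embryo 1 together, an omission chosen after the data were seen. Slc2a1 lost its call in that fit and Vhl gained one. With a trend on GC content and length removed 22 genes were higher and 3 lower, beside 22.2% and 30.7% of all genes. There Slc2a1, Aldoa, Tpi1, Pgk1, Eno3, Pkm2, Ldhb and Vegfa lost their call. Tested against a 1.2-fold change instead of no change, 20 were higher and 1, Hif1a, lower, beside 14.4% and 7.9% of all genes. The same 8 genes lost their call, as did Slc16a3, Pfkfb3, Pfkfb4 and Pdk3.

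**Figure D1:**
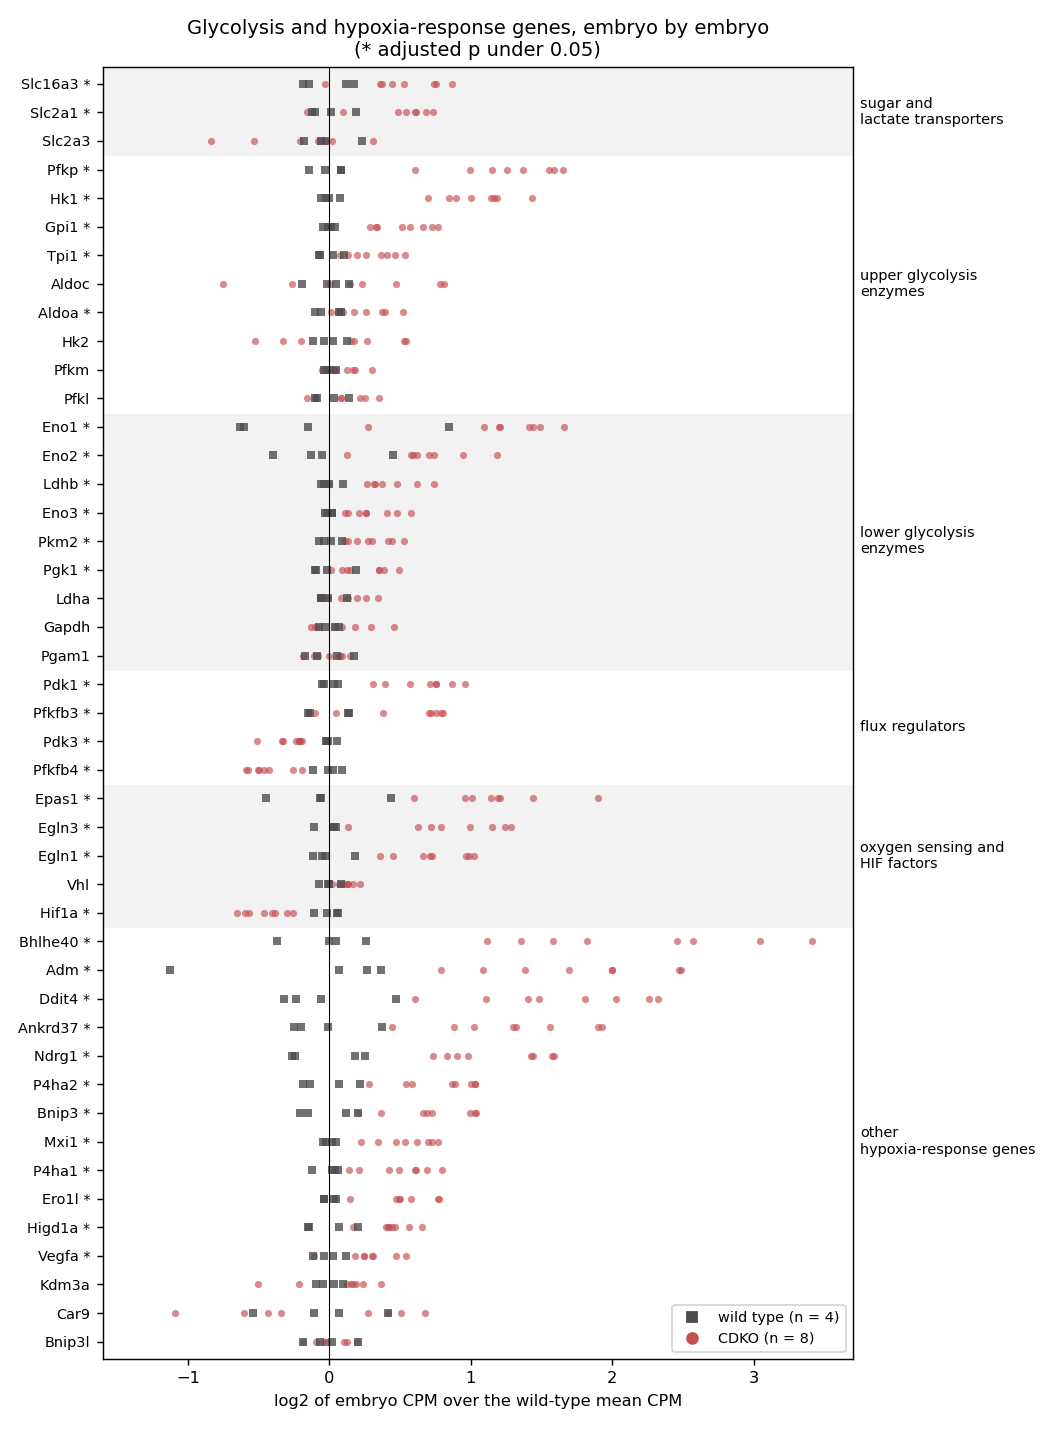
Each point is 1 embryo's level of 1 gene on the log2 scale, relative to the mean CPM of the 4 wild-type embryos, with genes grouped by role and an asterisk on genes with an adjusted p under 0.05. Wild-type points lie around 0, with a wide spread in genes of low level such as Adm (1.04 to 2.94 CPM) and Eno1 (0.249 to 0.691 CPM). In 41 of the 45 genes the log2 fold change is above 0, with Bhlhe40, Adm and Ddit4 farthest out.

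Promoter sequence is shown for 4 members with large rises and 2 of the 3 that fell, because many of these genes are known HIF targets. They were chosen after their values were seen, among the 40 of 45 genes with a window in RefSeq's promoter table (GRCm38.p6), which does not include Bhlhe40, the member with the largest rise, Epas1 or Ndrg1. The 250 bases before each start site were searched on both strands for ACGTG and for GCGTG, and overlapping matches were merged into 1. A match was found in 36 of 40 genes (90%). It was found in 24 of 27 genes that rose, in 3 of 3 that fell and in 9 of 10 that did not pass the test. By comparison 60.8% of the 10206 tested genes with a window and 38.6% of all 32851 windows held a match. Base composition of the windows was not taken into account, and a match is a description of letters, not of binding. The presence of a match therefore did not separate the genes that rose from those that fell. The stretches below end before the first annotated exon base, are written 5′ to 3′ on the gene's strand, and have the matched letters in capitals.
Ddit4, chr10:59951835-59952020, minus strand: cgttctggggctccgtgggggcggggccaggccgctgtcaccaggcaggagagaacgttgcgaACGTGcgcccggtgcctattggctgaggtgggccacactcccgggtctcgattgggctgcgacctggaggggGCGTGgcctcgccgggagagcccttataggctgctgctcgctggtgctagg
Adm, chr7:110627407-110627656, plus strand: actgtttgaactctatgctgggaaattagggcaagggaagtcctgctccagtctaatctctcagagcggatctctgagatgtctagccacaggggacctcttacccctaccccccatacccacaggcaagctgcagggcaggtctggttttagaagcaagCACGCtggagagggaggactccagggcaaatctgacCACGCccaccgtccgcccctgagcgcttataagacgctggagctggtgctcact
Ankrd37, chr8:45999868-46000100, minus strand: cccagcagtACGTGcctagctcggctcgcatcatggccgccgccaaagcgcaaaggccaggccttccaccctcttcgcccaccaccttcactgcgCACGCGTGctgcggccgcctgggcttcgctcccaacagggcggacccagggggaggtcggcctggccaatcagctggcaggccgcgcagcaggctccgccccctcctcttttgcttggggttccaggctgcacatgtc
Pfkp, chr13:6648778-6649021, minus strand: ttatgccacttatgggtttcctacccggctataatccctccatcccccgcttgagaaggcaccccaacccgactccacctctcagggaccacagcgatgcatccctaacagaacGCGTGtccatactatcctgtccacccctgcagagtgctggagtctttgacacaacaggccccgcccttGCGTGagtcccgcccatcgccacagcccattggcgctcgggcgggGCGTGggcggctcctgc
Hif1a, chr12:73907617-73907866, plus strand: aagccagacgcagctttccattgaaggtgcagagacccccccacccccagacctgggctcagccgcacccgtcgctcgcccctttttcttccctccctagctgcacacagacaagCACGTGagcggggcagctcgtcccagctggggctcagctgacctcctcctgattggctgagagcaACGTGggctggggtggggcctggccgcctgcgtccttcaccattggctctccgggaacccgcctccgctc
Pdk3, chrX:93832202-93832400, minus strand: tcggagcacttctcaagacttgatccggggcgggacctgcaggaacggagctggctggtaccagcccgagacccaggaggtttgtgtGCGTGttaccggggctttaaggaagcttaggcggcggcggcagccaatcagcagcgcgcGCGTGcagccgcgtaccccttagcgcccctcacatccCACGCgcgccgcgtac
The first 3 genes, Ddit4, Adm and Ankrd37, are hypoxia-response genes with large rises. Pfkp is the glycolytic enzyme with the largest log2 fold change. Hif1a and Pdk3 fell, and the stretch before Hif1a holds CACGTG, which reads the same on both strands.

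Glucose and lactate carriers were represented by 3 genes, of which 2 rose. Slc2a1, which encodes the widely expressed glucose transporter GLUT1, stood at 1355, 1233, 1253 and 1531 CPM in WT embryos 1 to 4 and at 1205 to 2229 CPM (median 2000) in CDKO embryos. Its log2 fold change was 0.48 (SE 0.15, adjusted p = 0.0193), and 6 of 8 CDKO embryos lay above all WT embryos while 1 lay below them. This call was lost without WT embryo 2 (adjusted p = 0.0596) or 3 (adjusted p = 0.0592) and with the red cell covariate (adjusted p = 0.102). It was also lost without CDKO embryo 2 and WT embryo 1 together (adjusted p = 0.0684). Leaving out CDKO embryo 6 as well gave an adjusted p of 0.114. Slc16a3, the MCT4 exporter of lactate, was measured at 517, 417, 430 and 538 CPM in WT and at 466 to 867 CPM (median 665) in CDKO embryos. It rose by 0.53 on the log2 scale (SE 0.15, adjusted p = 0.00889), with 7 of 8 CDKO embryos above all WT embryos. Slc2a3, the neuronal and trophoblast glucose transporter GLUT3, was at 1951, 1798, 2000 and 2379 CPM in WT and 1137 to 2516 CPM (median 1936) in CDKO embryos. The groups overlapped broadly (log2 fold change -0.14, SE 0.17, adjusted p = 0.526).

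The upper part of the pathway, from hexokinase to triose phosphate isomerase, had 5 of 9 genes higher, 0 lower and a median log2 fold change of 0.26. Hk1, the hexokinase that commits glucose to the cell, stood at 59.0, 57.6, 59.8 and 63.3 CPM in WT and at 97.3 to 161 CPM (median 126) in CDKO embryos. It rose by 1.06 on the log2 scale (SE 0.11, adjusted p = 3.88e-06) and kept its call under each of 31 alternatives run. Every CDKO embryo exceeded every WT embryo. Hk2, the more abundant hexokinase here, ranged from 191 to 402 CPM in CDKO embryos around a WT range of 254 to 300 CPM, with 5 CDKO embryos above and 3 below all WT embryos (log2 fold change 0.12, SE 0.19, adjusted p = 0.621).

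Pfkp, the platelet-type phosphofructokinase that catalyses the committed step, was at 36.6, 31.3, 33.8 and 36.6 CPM in WT and at 52.7 to 108 CPM (median 86.1) in CDKO embryos. Its rise of 1.31 on the log2 scale (SE 0.17, adjusted p = 4.85e-05) came with no overlap, and its call held under each of 31 alternatives. The liver-type Pfkl and muscle-type Pfkm, which supply most of the transcript, did not pass the test (log2 fold changes 0.09, SE 0.09, and 0.11, SE 0.06). Gpi1, glucose-6-phosphate isomerase, was measured at 515, 506, 487 and 499 CPM in WT and 614 to 857 CPM (median 731) in CDKO embryos. It rose by 0.54 on the log2 scale (SE 0.09, adjusted p = 0.000156) without overlap. Tpi1, which interconverts the triose phosphates, was at 1262, 1120, 1114 and 1197 CPM in WT and 1236 to 1697 CPM (median 1458) in CDKO embryos. The log2 fold change was 0.31 (SE 0.08, adjusted p = 0.00426), and all but 1 of the 8 CDKO embryos lay above the WT range. Aldoa, the main aldolase, rose by 0.25 (SE 0.09, adjusted p = 0.0285). This call was lost without WT embryo 2 (adjusted p = 0.0803) or WT embryo 3 (adjusted p = 0.0949) and with the red cell covariate (adjusted p = 0.175). Aldoc was at 0.26 (SE 0.24, adjusted p = 0.395).

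The lower part, from glyceraldehyde phosphate to lactate, had 6 of 9 genes higher, 0 lower and a median log2 fold change of 0.31. Pkm2, the pyruvate kinase gene, was among the most abundant, at 3860, 3519, 3445 and 3656 CPM in WT and 3907 to 5226 CPM (median 4425) in CDKO embryos. It rose by 0.31 on the log2 scale (SE 0.07, adjusted p = 0.00275), and the groups did not overlap. The table counts the whole gene, so its M1 and M2 splice forms were not separated. Eno3, an enolase best known from muscle, was at 86.1, 85.3, 88.3 and 88.3 CPM in WT and 93.9 to 130 CPM (median 104) in CDKO embryos. Its rise of 0.31 (SE 0.08, adjusted p = 0.00408) was also without overlap, and it stood beside 9 of 12 heart muscle markers that rose; whether those cells carry it was not tested.

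Ldhb, the heart-type lactate dehydrogenase subunit, stood at 24.1, 22.0, 22.6 and 21.7 CPM in WT and 22.6 to 37.7 CPM (median 28.8) in CDKO embryos. It rose by 0.41 on the log2 scale (SE 0.11, adjusted p = 0.00561), with 7 of 8 CDKO embryos above WT. Ldha, the dominant subunit, did not pass the test (log2 fold change 0.12, SE 0.07, adjusted p = 0.179). Eno1, usually the main embryonic enolase, was listed at only 0.348, 0.253, 0.691 and 0.249 CPM in WT and at 0.466 to 1.21 CPM (median 0.957) in CDKO embryos. It was called higher (log2 fold change 1.28, SE 0.32, adjusted p = 0.00347), but it has 4 near-identical copies and the labels do not say how reads that fit several places were counted. Gapdh, with 127 such copies, was likewise listed at a low 23.1 ± 1.04 CPM (SD, n = 4) in WT and 24.9 ± 3.72 CPM (SD, n = 8) in CDKO embryos (log2 fold change 0.11, SE 0.10, adjusted p = 0.404). The levels of Eno1 and Gapdh are therefore not ranked against other genes.

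Of the remaining genes of the lower part, Eno2, the neuronal enolase, rose by 0.72 (SE 0.21, adjusted p = 0.00918) from a mean of 1.44 CPM. Its call was lost with the red cell covariate (adjusted p = 0.0575). Pgk1, X-linked phosphoglycerate kinase, rose by 0.25 (SE 0.09, adjusted p = 0.0262), a call lost without WT embryo 2 (adjusted p = 0.0851), WT embryo 3 (adjusted p = 0.0906) or WT embryo 4 (adjusted p = 0.0617) and with the red cell covariate (adjusted p = 0.160). Pgam1, phosphoglycerate mutase, was level between the groups to within its error (log2 fold change 0.00, SE 0.07, adjusted p = 0.966). Across all 18 enzymes of glycolysis 11 rose, 0 fell and all 18 log2 fold changes were above 0.

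**Figure D2:**
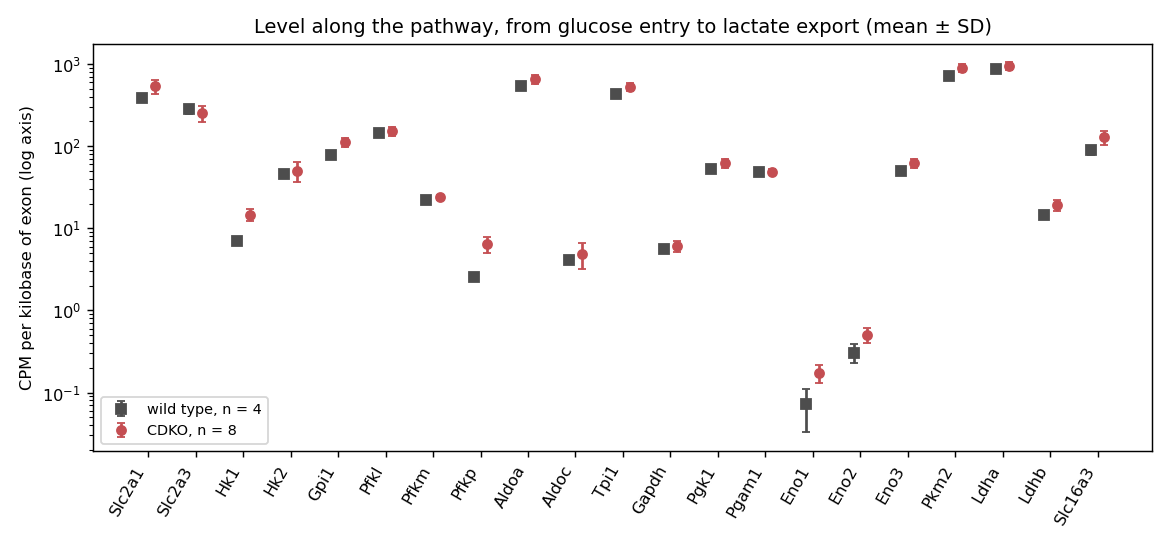
Mean ± SD of CPM per kilobase of exon on a log axis for 21 genes ordered from glucose entry to lactate export, with squares for 4 wild-type and circles for 8 CDKO embryos. Ldha, Pkm2 and Aldoa are plotted highest and Eno1 and Gapdh low, all with uncertain counts because of near-identical copies, and the largest gaps between the groups are at Hk1, Pfkp and Eno1.

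Levels per kilobase of exon differed far more between genes than between genotypes. Ldha, Pkm2, Aldoa and Tpi1 are among the genes with near-identical copies, so their levels are approximate. In WT embryos Ldha had 873 ± 54.5, Pkm2 724 ± 36.5, Aldoa 547 ± 34.4, Tpi1 426 ± 25.6 and Slc2a1 383 ± 38.9 CPM per kilobase (SD, n = 4). Hk1 had 7.02 ± 0.28 and Pfkp 2.58 ± 0.19 CPM per kilobase in the same embryos. The enzymes with the largest relative rises were thus low, and the abundant ones rose by less: Pkm2 went to 896 ± 95.4 CPM per kilobase (SD, n = 8) and Ldha stood at 948 ± 97.2.

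Regulators of glycolytic flux moved in opposite directions, with 2 of 4 higher and 2 of 4 lower. Pdk1, a kinase that blocks pyruvate entry into the mitochondrion by inactivating pyruvate dehydrogenase, stood at 151, 141, 140 and 148 CPM in WT and 179 to 282 CPM (median 241) in CDKO embryos. It rose by 0.68 (SE 0.11, adjusted p = 0.000111) with no overlap. Pdk3, an X-linked kinase with the same substrate, was at 76.6, 72.7, 73.3 and 73.0 CPM in WT and 51.9 to 64.6 CPM (median 63.3) in CDKO embryos. It fell in every CDKO embryo relative to all WT embryos (log2 fold change -0.28, SE 0.06, adjusted p = 0.000876). Pfkfb3, which makes the activator fructose 2,6-bisphosphate, was at 100, 81.9, 82.7 and 99.8 CPM in WT and 85.0 to 159 CPM (median 149) in CDKO embryos. Its rise of 0.55 (SE 0.18, adjusted p = 0.0205) overlapped with WT in 2 embryos and lost its call without WT embryo 2 (adjusted p = 0.0628) or 3 (adjusted p = 0.0636) and with the red cell covariate (adjusted p = 0.101). Pfkfb4, another enzyme of that family, was at 10.5, 11, 9.56 and 10.3 CPM in WT and 6.86 to 9.02 CPM (median 7.42) in CDKO embryos, and fell without overlap (log2 fold change -0.43, SE 0.09, adjusted p = 0.00142).

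Among the 5 oxygen-sensing genes the prolyl hydroxylases Egln1 and Egln3 and the HIF alpha subunit Epas1 rose, and the alpha subunit Hif1a fell. Hif1a stood at 264, 250, 262 and 235 CPM in WT and 160 to 212 CPM (median 187) in CDKO embryos. Its log2 fold change was -0.45 (SE 0.07, adjusted p = 8.04e-05), every CDKO embryo was below every WT embryo, and the call held under each of 31 alternatives. Epas1, which encodes HIF-2 alpha and is prominent in endothelium, was at 13.7, 17.9, 25.3 and 17.9 CPM in WT and 28.3 to 69.9 CPM (median 42.0) in CDKO embryos. It rose by 1.23 (SE 0.23, adjusted p = 0.000689) without overlap and also kept its call under each of 31 alternatives. The 10 endothelial markers ran alongside with 7 higher and a median log2 fold change of 0.40; their part in the rise of Epas1 was not tested.

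Egln1, the main hydroxylase that marks HIF alpha for destruction, was measured at 133, 125, 131 and 154 CPM in WT and 174 to 275 CPM (median 222) in CDKO embryos. It rose by 0.75 (SE 0.12, adjusted p = 0.000189) and the groups were separate. Egln3, a hydroxylase that HIF itself induces, was at 22.2, 20, 22.0 and 21.8 CPM in WT and 23.5 to 52.4 CPM (median 39.9) in CDKO embryos. It rose by 0.91 (SE 0.18, adjusted p = 0.00104), and the lowest CDKO value lay just above the WT range. Vhl, the substrate-binding part of the ligase, was at 40.8, 38.2, 36.5 and 38.4 CPM in WT and 39.0 to 44.7 CPM (median 41.9) in CDKO embryos. It did not pass the test (log2 fold change 0.12, SE 0.05, adjusted p = 0.0639), though it did without WT embryo 1 (adjusted p = 0.0452) or CDKO embryo 1 (adjusted p = 0.0388).

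Of the other 15 hypoxia-response genes 12 rose and 0 fell, with a median log2 fold change of 0.56. The largest rises among all members belonged to genes picked out after their values were seen. Bhlhe40, a transcriptional repressor, was at 3.30, 3.19, 2.48 and 3.84 CPM in WT and 6.92 to 34.0 CPM (median 14.4) in CDKO embryos (log2 fold change 2.37, SE 0.48, adjusted p = 0.00142). Adm, the vasodilator peptide adrenomedullin, was at 1.04, 2.38, 2.94 and 2.74 CPM in WT and 3.92 to 12.7 CPM (median 8.22) in CDKO embryos (1.84, SE 0.36, adjusted p = 0.000943). In both genes the CDKO embryos spread widely but lay entirely above WT. Ddit4, an inhibitor of mTORC1 signalling, was at 63.2, 52.6, 55.9 and 91.3 CPM in WT and 100.2 to 329 CPM (median 207) in CDKO embryos (1.73, SE 0.34, adjusted p = 0.00139). Ankrd37, an ankyrin-repeat gene known as a HIF-1 target, was at 5.79, 5.06, 4.89 and 7.53 CPM in WT and 7.90 to 22.1 CPM (median 14.4) in CDKO embryos (1.37, SE 0.26, adjusted p = 0.000755). The promoter stretches of Adm, Ddit4 and Ankrd37 printed above each hold 2 merged matches.

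Among the genes with the lowest p in this role, Ndrg1, a stress-responsive gene also used in Schwann cell maintenance, was at 12.5, 12.3, 17.6 and 16.7 CPM in WT and 24.6 to 44.4 CPM (median 34.4) in CDKO embryos. Its rise of 1.22 (SE 0.19, adjusted p = 0.000174) held under each of 31 alternatives. Mxi1, a Max partner that opposes Myc, was at 25.0, 26.1, 25.2 and 26.5 CPM in WT and 30.0 to 43.7 CPM (median 38.3) in CDKO embryos (log2 fold change 0.56, SE 0.09, adjusted p = 0.000152). Neither gene's groups overlapped. P4ha2, a collagen prolyl hydroxylase subunit, was at 42.3, 40.9, 48.6 and 53.8 CPM in WT and 56.4 to 94.8 CPM (median 85.2) in CDKO embryos (0.80, SE 0.14, adjusted p = 0.00037), also without overlap. Higd1a, a mitochondrial protein that modulates respiration, was at 43.7, 34.2, 34.3 and 39.7 CPM in WT and 42.7 to 59.8 CPM (median 51.1) in CDKO embryos (0.45, SE 0.09, adjusted p = 0.000509), with 7 of 8 above WT.

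Vegfa, the main angiogenic growth factor, was measured at 68.5, 61.8, 58.4 and 64.4 CPM in WT and 58.6 to 91.9 CPM (median 76.4) in CDKO embryos. Its rise was small (log2 fold change 0.28, SE 0.09, adjusted p = 0.0199), with 7 of 8 CDKO embryos above WT, and was lost without WT embryo 2 (adjusted p = 0.0557) or 3 (adjusted p = 0.0732) and with the red cell covariate (adjusted p = 0.127). Bnip3, a mitophagy receptor, rose by 0.74 (SE 0.16, adjusted p = 0.00189), while its relative Bnip3l was at 0.01 (SE 0.08, adjusted p = 0.910). P4ha1 rose by 0.51 (SE 0.11) and the endoplasmic reticulum oxidase Ero1l by 0.49 (SE 0.12), with adjusted p of 0.00121 and 0.00376. Car9, a carbonic anhydrase often used as a hypoxia marker, was low at 0.869 ± 0.233 CPM (SD, n = 4) in WT and 0.891 ± 0.358 CPM (SD, n = 8) in CDKO embryos, and no difference was detectable at that level (log2 fold change 0.04, SE 0.31). Kdm3a, a histone demethylase, did not pass the test either (0.09, SE 0.13).

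Within gene families the mix of members shifted. The share of 1 gene in the sum of the listed genes of its family, in counts per kilobase of exon, does not depend on library scaling. Only members of the 45 enter a sum, so Egln2, Hif3a, Pdk2, Pdk4, Slc2a8 and other relatives are left out, and a share is not that of the whole family. It was compared for 12 families by an exact two-sided permutation test over the 12 embryos, whose smallest possible p is 0.00202, with Benjamini-Hochberg adjustment over the 12. Of the 12 shares 9 passed and 7 did not overlap between groups. Shares of other gene pairs were not computed, so these counts have no background of their own. Of single genes tested 51.5% were called, so many other pairs could shift too. The largest shift was in the pyruvate dehydrogenase kinases, where Pdk1 made up 39.2 ± 0.631% (SD, n = 4) of Pdk1 plus Pdk3 in WT and 55.4 ± 2.36% (SD, n = 8) in CDKO embryos. Hif1a fell from 92.8 ± 1.66% to 80.1 ± 4.34% of Hif1a plus Epas1. Bnip3 moved from 37.0 ± 2.03% to 49.0 ± 3.99% of Bnip3 plus Bnip3l.

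Slc2a1 went from 57.8 ± 1.21% to 67.8 ± 2.24% of Slc2a1 plus Slc2a3, although Slc2a3 alone did not pass the test. Hk1 went from 13.2 ± 0.624% to 23.2 ± 4.28% of Hk1 plus Hk2 and Pfkfb3 from 85.0 ± 1.58% to 91.4 ± 2.21% of Pfkfb3 plus Pfkfb4. Each of these 6 shares had an exact permutation p of 0.00202 (adjusted p = 0.00404) and no overlap. Small shifts were seen for Pfkl, from 85.2 ± 1.01% to 83.4 ± 0.607% of Pfkl, Pfkm and Pfkp (exact permutation p = 0.00404, adjusted p = 0.00606), and for P4ha1, from 82 ± 1.62% to 78.9 ± 1.72% of P4ha1 plus P4ha2 (exact permutation p = 0.0162, adjusted p = 0.0215). The P4ha1 shift lost its call without WT embryo 1 (adjusted p = 0.0727) or WT embryo 2 (adjusted p = 0.0646). Eno1's share also passed but rests on uncertain counts. Ldha stayed near 98% of Ldha plus Ldhb (98.4 ± 0.056% and 98.0 ± 0.333%, exact permutation p = 0.0525, adjusted p = 0.063), with groups that did not overlap. Egln1 in Egln1 plus Egln3 (82.3 ± 1.12% and 80.9 ± 2.07%) and Aldoa in Aldoa plus Aldoc (99.3 ± 0.0877% and 99.3 ± 0.189%) did not pass, with exact permutation p of 0.238 and 0.925.

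**Figure D3:**
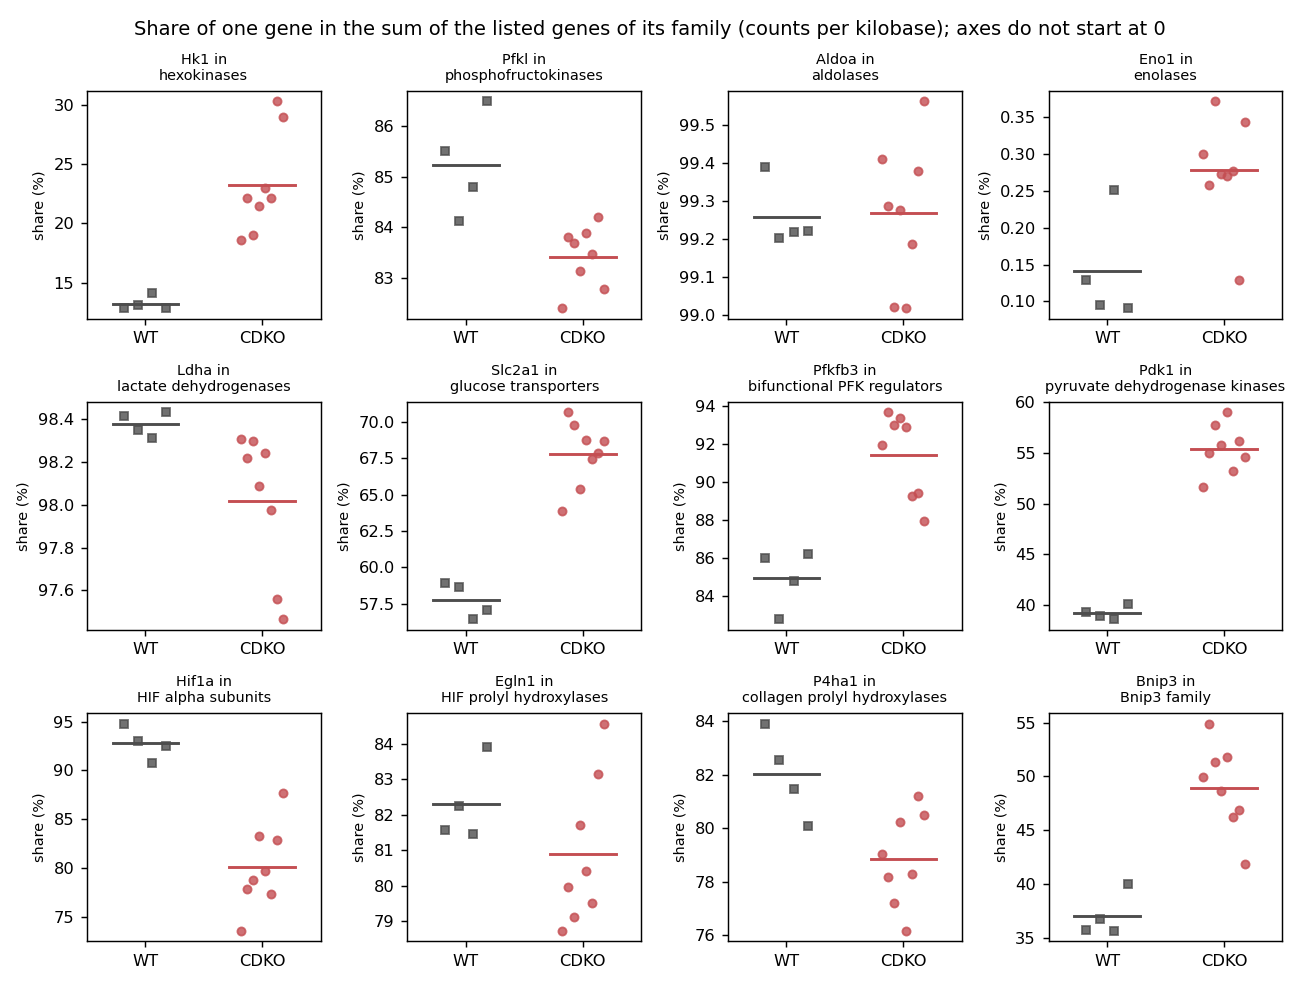
Percent share of the named gene in the sum of the listed genes of its family by counts per kilobase of exon, 1 point per embryo with squares for 4 wild-type and circles for 8 CDKO embryos, lines at group means, and axes that do not start at 0. The Pdk1, Slc2a1, Hk1, Bnip3, Pfkfb3 and Hif1a panels show groups that do not overlap.

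CDKO embryos differed among themselves in the size of these rises. Over the 30 genes that rose, CDKO embryo 8 had the lowest CDKO value in 23 and CDKO embryo 2 the highest in 15, followed by CDKO embryo 3 in 9. CDKO embryo 8 lay above all WT embryos in 21 of the 30, and CDKO embryos 2, 3 and 5 did so in all 30. The 30 genes were called from these same embryos, so high counts above WT follow in part from that choice. The median over the 45 genes of log2 CPM relative to the WT mean was 0.11 in CDKO embryo 8 and 0.22 to 0.62 in the other CDKO embryos, against -0.06 to 0.06 in WT embryos. Red cell marker sums were highest in CDKO embryo 8, at 1725 CPM, and lowest in CDKO embryo 2, at 37.7 CPM. CDKO embryos 1, 7 and 8, with sums of 1142 to 1725 CPM, had medians of 0.11 to 0.37. CDKO embryos 2, 3, 4 and 5, with sums of 37.7 to 338 CPM, had medians of 0.42 to 0.62. The order was not strict, since CDKO embryo 6 had a median of 0.22 at a sum of 435 CPM. The part of red cells in these differences among CDKO embryos was not tested. With the red cell covariate the median log2 fold change of the 45 genes was 0.34.

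**Figure D4:**
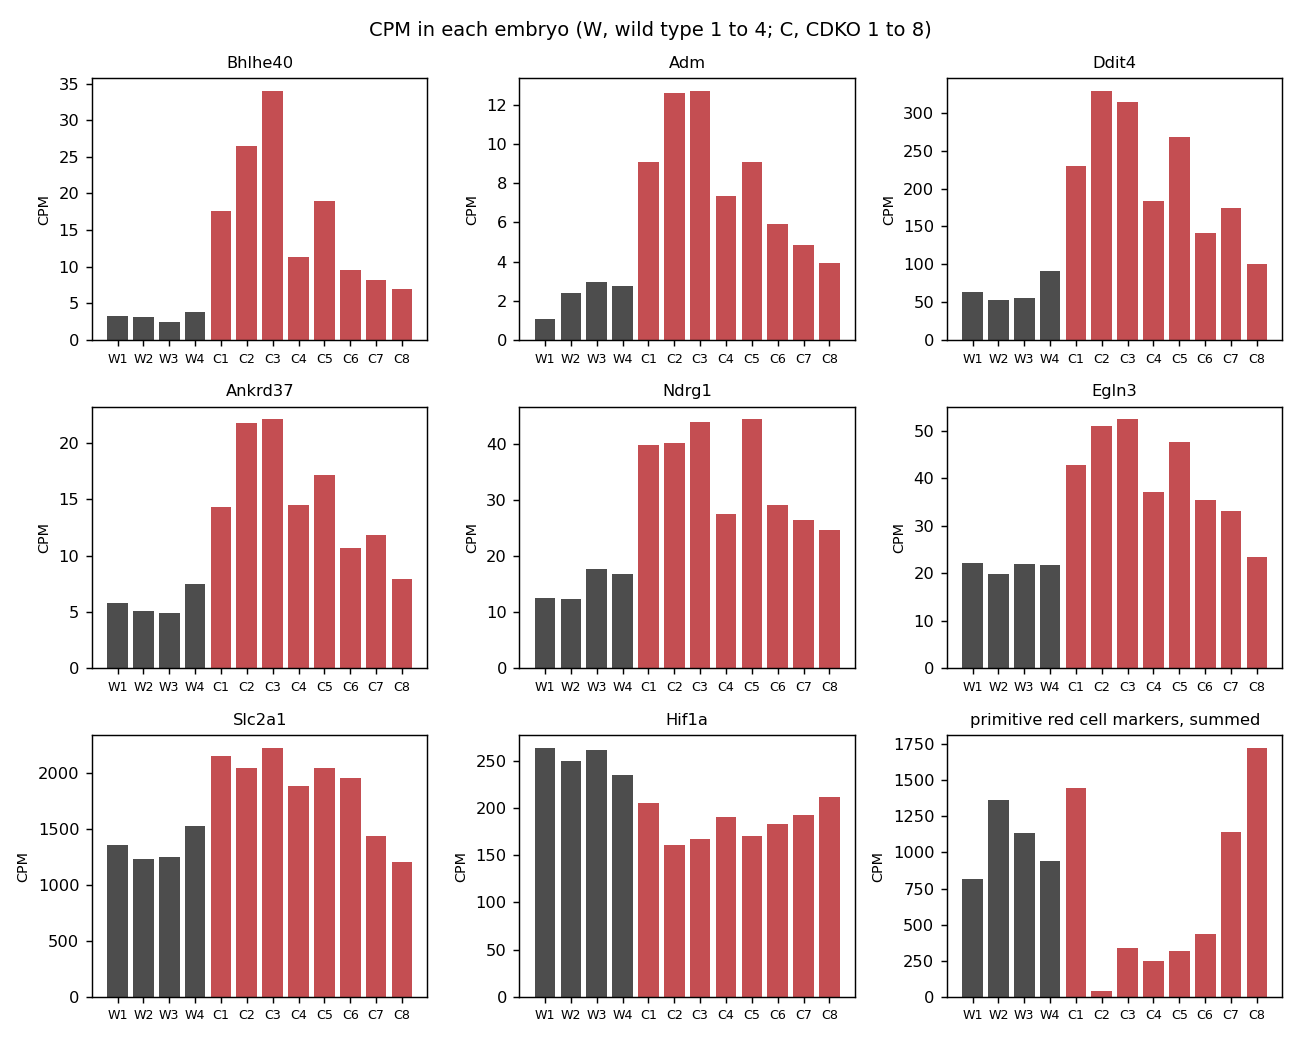
Bars, starting at 0, give CPM in each of 4 wild-type and 8 CDKO embryos for 8 genes and for the sum of 10 primitive red cell markers. Bhlhe40, Adm, Ddit4, Ankrd37, Ndrg1 and Egln3 are above wild type in every CDKO embryo, Hif1a is below in every one, and CDKO embryo 2 has the smallest red cell sum.

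Other genes of the pathways were examined in lists that exclude the 45. Of 30 tested genes of sugar, pyruvate and lactate handling 15 rose and 6 fell (median log2 fold change 0.25). Those with the lowest p were Pcx, pyruvate carboxylase (37.7 ± 3.36 to 92.1 ± 10.5 CPM, log2 fold change 1.29, SE 0.09, adjusted p = 4.17e-08), Brp44, the mitochondrial pyruvate carrier subunit now called Mpc2 (0.97, SE 0.07), the glucose transporter gene Slc2a8 (0.99, SE 0.12) and Pgam2, muscle phosphoglycerate mutase (1.18, SE 0.14). Every CDKO embryo was above every WT embryo in these 4, a separation that choice by low p favours. In the list of 30, 9 genes were separated upward and 2 downward, beside 17.5% and 17.1% of all genes tested. Pyruvate dehydrogenase subunits, named after their values were seen, went both ways: Pdha1 rose by 0.25 (SE 0.06), while Pdhb (-0.31, SE 0.05), Pdhx (-0.23, SE 0.06), Dlat (-0.12, SE 0.04) and Dld (-0.16, SE 0.06) fell, each with an adjusted p of 0.0317 or less.

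The pentose phosphate and glycogen genes had 8 of 26 higher, 5 lower and a median log2 fold change of -0.047. Gyg, glycogenin, went from 94.0 ± 3.80 to 175 ± 19.3 CPM (0.90, SE 0.08, adjusted p = 2.86e-07), and Pgm1, phosphoglucomutase, rose by 0.43 (SE 0.07, adjusted p = 0.000207). Prps2, which makes the ribose phosphate donor for nucleotides, fell from 76.3 ± 2.78 to 53.4 ± 2.45 CPM (-0.51, SE 0.05, adjusted p = 4.91e-07). None of these 3, chosen by low p, overlapped between groups. In the list of 26, 6 genes were separated upward and 3 downward, beside 17.5% and 17.1% of all genes tested.

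Other HIF regulators and hypoxia targets had 22 of 50 higher, 9 lower and a median log2 fold change of 0.20. In this list 12 genes were separated upward without overlap and 4 downward, beside 17.5% and 17.1% of all genes tested. Car12, a carbonic anhydrase, fell from 21.9 ± 1.35 to 6.06 ± 0.993 CPM (-1.85, SE 0.12, adjusted p = 9.70e-09), the opposite direction to most of the list. Egln2, the remaining HIF prolyl hydroxylase, rose by 0.50 (SE 0.06), and the histone demethylase genes Kdm4c and Kdm4b rose by 0.78 (SE 0.09) and 0.69 (SE 0.10), all without overlap. Ndufa4l2, a mitochondrial protein gene that HIF-1 induces, was picked out after its values were seen: it went from 6.61 ± 1.71 to 29.8 ± 10.2 CPM (2.18, SE 0.31, adjusted p = 9.71e-05). Hif3a, the third alpha subunit gene, also chosen after its values were seen, fell like Hif1a (-0.46, SE 0.11, adjusted p = 0.00268). Angptl4 (-0.71, SE 0.15, adjusted p = 0.00122) and Tfrc (-0.63, SE 0.10, adjusted p = 0.000152), chosen the same way, fell without overlap. The share of genes called was 70% in the sugar list, 50% in the pentose and glycogen list and 62% in the HIF list, beside 51.5% of all genes tested.

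**Figure D5:**
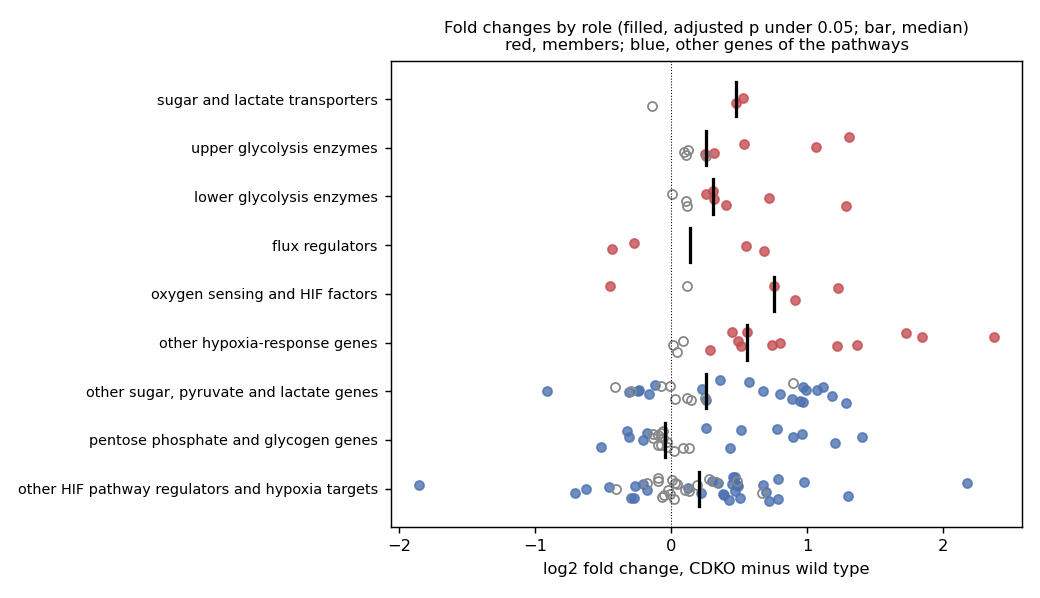
Log2 fold change, CDKO minus wild type, of each of the 45 genes by role (red) and of other genes of the pathways (blue), with filled points past an adjusted p of 0.05 and a bar at each list's median. Points of the oxygen-sensing and other hypoxia-response roles lie mostly right of 0, while flux regulators and the pentose and glycogen list fall on both sides.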

How the data were processed

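Per the labels, poly-A RNA of 12 single whole embryos was sequenced with paired reads of 50 bases. The authors' deposited table holds raw counts per gene symbol. The build was mm9 and the tools named were STAR, featureCounts, FastQC and DESeq2, per the submitters' processing notes. Their versions, the annotation, strandedness and handling of multiply mapped reads were not given in the sources used here, so genes with near-identical copies have uncertain counts; a copy is another, non-overlapping gene of GENCODE M21 with at least 200 bases at 95% identity by BLAST 2.17.0. Totals were 16802367 to 21346245 counts per embryo, and the lowest chi-square per degree of freedom between libraries of a group was 3.89, so none was a duplicate.

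Counts of 14412 genes were compared between genotypes by the robust quasi-likelihood F test of edgeR 4.0.16 (R 4.3.3), after filterByExpr and TMM scaling and with no covariate, with Benjamini-Hochberg adjustment and a threshold of 0.05, after the script was tested on simulated data. The SE is the size of the log2 fold change divided by the square root of F. Levels per kilobase use the GENCODE M21 exon union. Embryo numbers are accession order only and carry no pairing.

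The members, lists and alternatives were chosen with earlier results of these data known. The 4 WT values and the CDKO range and median are given for up to 4 members per role with the lowest p, for Hif1a, Epas1, Vhl, Egln1 and Vegfa, and, chosen after their values were seen, for Bhlhe40, Adm, Ddit4 and Ankrd37; up to 4 genes with the lowest p are named from each other list, of which 1 is not reported here. Alternatives were RLE and upper-quartile scaling, TMM without the members, DESeq2 1.42.0, limma-voom 3.58.1 with and without sample quality weights, other filters, no robust estimation, Xist, red cell, yolk sac and heart covariates, the 50 most abundant genes left out, a GC and length trend removed with mgcv 1.9.3, a test against 1.2-fold, an adjusted p of 0.01 and embryos left out.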

Additional observations from a re-analysis of the deposited data

Results flagged for a closer look

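In 7 of 152 embryo groups examined (4.61%) 1 embryo stood far from the others of its group by Dixon's test, where chance gives about 1 in 20. Pdk3 had 76.6 CPM in WT embryo 1, against 72.7 to 73.3 in the other WT embryos, and 51.9 CPM in CDKO embryo 6, against 58.7 to 64.6 in the other CDKO embryos. Egln3 had 19.95 CPM in WT embryo 2, against 21.8 to 22.2. Pgam2 had 42.4 CPM in CDKO embryo 2, against 24.2 to 31.7. Kdm4b had 85.9 CPM in WT embryo 4, against 75.8 to 76.8. Aldoa's share of the aldolases was 99.4% in WT embryo 1, against 99.2% in each of the others. Eno1's share of the enolases was 0.13% in CDKO embryo 7, against 0.257% to 0.372%, on uncertain counts.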

How the results depend on the processing

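No paired analysis was possible because the labels carry no replicate numbers shared between the genotypes. RLE, upper-quartile or member-free TMM scaling, DESeq2, limma-voom, both count filters, no robust estimation and the Xist and yolk sac covariates each left all 45 member calls as they were, and sample quality weights added Pfkm, Ldha and Vhl. Of the 33 called genes, 6 (Hk1, Pfkp, Hif1a, Epas1, Adm and Ndrg1) kept their call under every alternative run; the heart covariate ended 26 calls, the test against 1.2-fold 12 and the GC and length trend 8. With the heart covariate Aldoa was at -0.0428 (adjusted p = 0.794) and Pgk1 at -0.0665 (adjusted p = 0.653), and 5 members were higher, beside 17.9% of all genes tested, with a median log2 fold change of 0.23. In that fit the sugar list had 1 lower, the pentose and glycogen list 3 higher and 2 lower, and the HIF list 10 higher and 4 lower. Of all genes tested, 13.5% were lower there. Against 1.2-fold, 1 member, 0 sugar, 1 pentose or glycogen and 3 HIF list genes were lower and 13 HIF list genes higher. Of all genes tested, 7.9% were lower and 14.4% higher in that test. At an adjusted p of 0.01, 3 sugar list genes were lower, and no share over all genes is given for that threshold. With the GC and length trend removed 8 pentose or glycogen genes were lower, beside 30.7% of all genes tested. Without each embryo in turn, members higher ranged from 25 to 31, beside 23.2% to 27.1% of all genes tested. Members lower ranged from 3 to 3 and the median from 0.40 to 0.48. In the same fits the sugar list had 13 to 15 higher and 4 to 8 lower. The pentose and glycogen list had 8 to 8 and 4 to 6, and the HIF list 19 to 23 and 7 to 9. Of all genes tested, 21.4% to 25.6% were lower in these fits. The P4ha1 share difference ranged from -3.79 to -2.52 points, was -2.42 without CDKO 2 and WT 1, and was -2.32 without CDKO 2, CDKO 6 and WT 1, where the Eno1 share difference was 0.136 points. With 4 WT embryos and levels near 1 CPM, as for Car9 and Eno1, small changes are not detectable.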
